A study of Mus musculus with 48 samples.

Results

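Cycloheximide (CHX), an inhibitor of translation elongation, was given to mouse embryonic stem cells with and without the splicing-associated protein CCDC174, and their total RNA was sequenced. The comparison set 2 libraries of CCDC174-depleted cells treated with CHX against 2 libraries of wild-type cells treated with CHX, and its members were all genes whose CPM (read counts scaled to a common library total) averaged 0.5 or more over these 4 libraries, 15483 of the 55335 genes in the table. Of the other 39852 genes, 22030 had no read in any of the 4 libraries and 17822 were below that level. Both groups came from an edited line in which CCDC174 carries an FKBP12-F36V degron, and the cells called wild type are this line without the degrader. Depletion was with 500 nM of the degrader dTAG-13 for 24 h, and CHX was given at 0.1 mg/ml for 4 h. The parental cells are male, of mixed 129-C57BL/6 background, carry Cre-ERT2 at Rosa26 and were kept in serum, LIF and 2i. Edited lines were picked clones, so each group describes a clonal line. Other groups served for comparison: the same line with and without dTAG-13 but without CHX, and a line with floxed Nrde2, untreated or knocked out with 100 nM 4-hydroxytamoxifen for 4 days, with and without the same CHX treatment. Each of these groups had 2 libraries, described as independent replicates, and the labels do not say whether they were separate cultures, so p-values measure the spread between these libraries.

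CCDC174 is a nuclear protein found with spliceosomes and with the exon junction complex, the protein mark that splicing leaves on spliced mRNA. A 5′ splice site is the start of an intron, which the U1 snRNA recognises by base pairing. A transcript that is spliced at a wrong site or keeps an intron often holds a premature stop codon, and nonsense-mediated decay then removes it in a step that needs translation. CHX stops translation and so stabilises such transcripts. It also stabilises short-lived mRNAs of immediate early genes, which encode transcription factors and feedback regulators that cells make within minutes of a signal. Many of these mRNAs build up in CHX.

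The 5′ splice sites of the genes on which the results turn are given here as 9 bases, the last 3 of the exon and the first 6 of the intron, read 5′ to 3′ on the gene's strand from the mouse genome GRCm38 (mm10) at introns of 1 annotated transcript per gene. Capitals mark the first 2 bases of the intron. Of 148887 introns of the tested genes, 99.0% begin with GT. Among these, the most frequent base at each position gives the first sequence below. Each site was scored by summing, over the 9 positions, the log2 ratio of the base's frequency at that position to an even base composition. The frequencies were taken only over introns that begin with GT, and a higher score means a more usual site among these. A site that begins with GC therefore scores very low by construction. The sequence of most frequent bases scored 12.97, and the median over all introns was 8.26. For the genes that were lower after depletion with and without CHX, and then for those whose decrease was smaller with CHX, the lowest scoring site of the gene is shown. The last set is from genes lower with CHX whose untreated level did not pass the test.
Most frequent bases: cagGTaagt
Lamb2 intron 29, chr9:108489372-108489380, plus strand: acgGTctga
Cad intron 42, chr5:31077694-31077702, plus strand: gctGTgagc
Itpr3 intron 52, chr17:27117923-27117931, plus strand: gagGTcttg
Phyh intron 1, chr2:4919142-4919150, plus strand: attGTatcc
Isyna1 intron 7, chr8:70596410-70596418, plus strand: tgtGTgcgt
Trap1 intron 14, chr16:4045437-4045445, minus strand: cagGTtgac
Ift172 intron 19, chr5:31267589-31267597, minus strand: tatGCaagt
Mink1 intron 6, chr11:70602055-70602063, plus strand: tagGTacta
Rps6kb2 intron 9, chr19:4158823-4158831, minus strand: tcgGCaagt
Socs3 intron 1, chr11:117968869-117968877, minus strand: tagGTagga
Fos intron 3, chr12:85475697-85475705, plus strand: gcgGTaggt
Egr2 intron 1, chr10:67538387-67538395, plus strand: gagGTaagc
Zfp36 intron 1, chr7:28379168-28379176, minus strand: gagGTgagt
The sites of Lamb2 (score 1.69), Itpr3 (0.10), Phyh (-1.01), Isyna1 (1.12) and Trap1 (1.01) were each higher than at most 1.83% of all sites. Those of Cad (3.36) and Mink1 (3.15) were higher than 3.29% and 3.02%. The score measures how usual the bases are and does not show which snRNA recognises a site. The sites of Ift172 (-9.47) and Rps6kb2 (-8.41) begin with GC in place of GT, so their scores are low by construction. The sites of Egr2 (10.43) and Zfp36 (11.17) were above the median of all introns, and those of Socs3 (7.19) and Fos (6.79) below it. A gene with more introns has more chances of a low lowest score, and the comparison of scores below, among genes with at least 10 introns, lessens this and does not remove it.

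The 4 libraries held between 34146303 and 36272309 reads in genes, and 1 read corresponded to about 0.025 CPM. Levels are given as CPM divided by a median-of-ratios factor (normalised CPM), and fold changes are on the scale of log2(normalised CPM + 0.25), which understates the change of low genes. A gene was called where limma gave a Benjamini-Hochberg adjusted p below 0.01 and the log2 fold change was beyond 1 in either direction. Ccdc174 mRNA was at 49.2 and 49.0 normalised CPM in wild-type cells and at 57.7 and 54.8 in depleted cells, where the log2 fold change was 0.19 with an SE of 0.06 and limma gave an adjusted p of 0.049. Values after ± are standard errors of this kind. The degrader removes the protein, so this mRNA does not check the labels. Mtrex, the RNA helicase of the nuclear exosome, had a log2 fold change of 0.06 ± 0.05 (adjusted p = 0.46) and Nrde2 of 0.18 ± 0.06 (adjusted p = 0.054). The 23 genes of pluripotency were all measured and none was at 0 in any library, with summed levels of 5010 and 5149 normalised CPM in wild-type and 4742 and 4935 in depleted cells.

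With CHX, CCDC174 depletion changed 146 of the genes tested (0.943%), lowering 113 (0.73%) and raising 33 (0.213%). Lamb2, Trh, Lefty2 and Socs3 fell to between 20.2% and 31.9% of their wild-type level, and Hoxb9 rose 3.65-fold. The median log2 fold change over all genes tested was 0.02. Of the 113 lowered genes 96 were protein-coding, and so were 26 of the 33 raised ones. Without the first or the second CCDC174-depleted library the number of calls was 93 or 82 in place of 146, of which 71 or 70 were among the 146, and with 1 CPM added before log2 in place of 0.25 it was 64, of which 6 were raised genes.

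Trh, which encodes thyrotropin-releasing hormone, was at 44.2 and 21.0 normalised CPM in wild-type and at 8.61 and 4.59 in depleted cells (log2 fold change -2.23 ± 0.34, adjusted p = 0.0015). Sp5, a transcription factor gene switched on by Wnt signalling, was at 5.17 and 4.65 against 1.09 and 0.796 (-2.12 ± 0.18, adjusted p = 4.4e-05). The wild-type and depleted libraries did not overlap for either gene, although the wild-type libraries differed more for Trh than for Sp5. Lefty2, which encodes an antagonist of the growth factor Nodal, was among the most abundant of these genes, at 280 and 235 in wild-type and at 90.7 and 68.2 in depleted cells (-1.70 ± 0.17, adjusted p = 0.00013). Lamb2, the laminin beta 2 chain of basement membranes, had the smallest standard error of the 12, at 57.1 and 60.2 against 16.9 and 16.5 (-1.80 ± 0.07, adjusted p = 5.1e-07). Socs3, a feedback inhibitor of LIF signalling, was the most abundant of them, at 388 and 466 against 120 and 153 (-1.65 ± 0.17, adjusted p = 0.00017). For Lamb2, Lefty2 and Socs3 both depleted libraries lay below both wild-type libraries. Lrrk1, a leucine-rich repeat kinase gene, was at 5.20 and 12.5 in wild-type and at 1.54 and 2.20 in depleted cells (-1.99 ± 0.37, adjusted p = 0.0042), and here the wild-type libraries stood apart from each other.

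The remaining genes of this group were Msln (mesothelin), Fgg (the fibrinogen gamma chain), Sidt1 (a membrane protein related to a transporter of double-stranded RNA), Cxcl11 (a chemokine gene, annotated as a polymorphic pseudogene), Egr1 and Gng3 (a G protein gamma subunit), with log2 fold changes between -1.96 for Msln and -1.64 for Gng3. Msln, Fgg, Sidt1 and Cxcl11 were low, at 1.25 to 2.74 normalised CPM in wild-type and at 0.181 to 0.515 in depleted cells, and the lowest of these values rested on 8 reads. The call of Lrrk1 and of Fgg was lost when any of 3 libraries was left out, and that of Trh when 1 was.

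**Figure D1:**
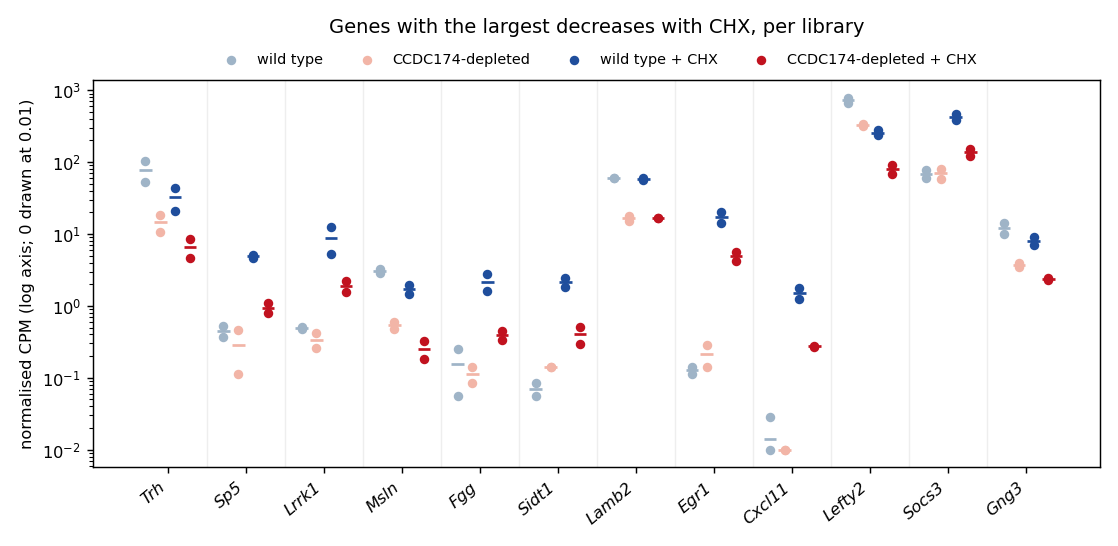
Normalised CPM (log axis) of the 12 genes with the largest decreases in the CHX comparison, in the 8 libraries of the Ccdc174 line, with 1 point per library and a bar at the mean. Both depleted CHX libraries (red) lie below both wild-type CHX libraries (blue) for every gene; for Sp5, Lrrk1, Fgg, Sidt1, Egr1 and Cxcl11 the untreated libraries (pale) lie far below the CHX libraries of wild-type cells, while for Trh, Msln, Lamb2, Lefty2 and Gng3 the pale red points also lie below the pale blue ones.

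The lowered genes fell into a set that was also lower in untreated cells and a set that was not called there. In untreated cells CCDC174 depletion lowered 180 of the same genes (1.16%), and 44 genes were shared, which is 38.9% of the genes lowered with CHX and 24.4% of those lowered without. These comparisons share no library in their groups, but the CHX libraries also entered the estimate of spread for the untreated effects. Among the 44 were Lamb2 (untreated log2 fold change -1.86), Trh (-2.37), Msln (-2.06), Gng3 (-1.60) and Lefty2 (-1.14). Of all 113 genes 98 (86.7%) had a negative fold change in untreated cells, against 44.7% of all genes tested, and none was called higher there. The remaining 69 genes included Sp5 (-0.46), Lrrk1 (-0.35), Fgg (-0.12), Socs3 (0.02) and Egr1 (0.28). That a gene passed the test in only 1 of the comparisons does not show that its response differed, and the test of that difference is given below.

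The response to CHX was measured in the untreated cells of the floxed Nrde2 line, whose libraries are in neither arm of the CCDC174 effects with or without CHX, although they share in the estimate of spread, and there CHX raised 1847 genes (11.9%). Of the 52 protein-coding genes lowered by CCDC174 depletion with CHX and not called lower without, CHX raised 34 (65.4%), against 3 of the 44 genes lowered in both states and 10.8% of all protein-coding genes tested. The median response to CHX, as a log2 fold change, was 1.59 for the 52 genes and -0.25 for the 44. Turned round, of the 1847 genes raised by CHX, CCDC174 depletion lowered 48 (2.60%) and raised 12 (0.65%). Of all genes tested it lowered 0.73% and raised 0.213%, so both shares were larger among the genes raised by CHX. Genes were admitted by their level with CHX, and a gene that is near 0 without CHX can hardly be called lower there. The larger share of genes raised by CHX among the 52 thus follows in part from how the sets were made. How many of the 34 were near 0 without CHX was not counted. Examples of genes near 0 are Sp5, at 0.532 and 0.367 normalised CPM in untreated wild-type cells, and Egr1, at 0.112 and 0.141. Socs3 is not such a gene, at 77.1 and 59.5 in untreated wild-type and 79.96 and 59.2 in untreated depleted cells.

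**Figure D2:**
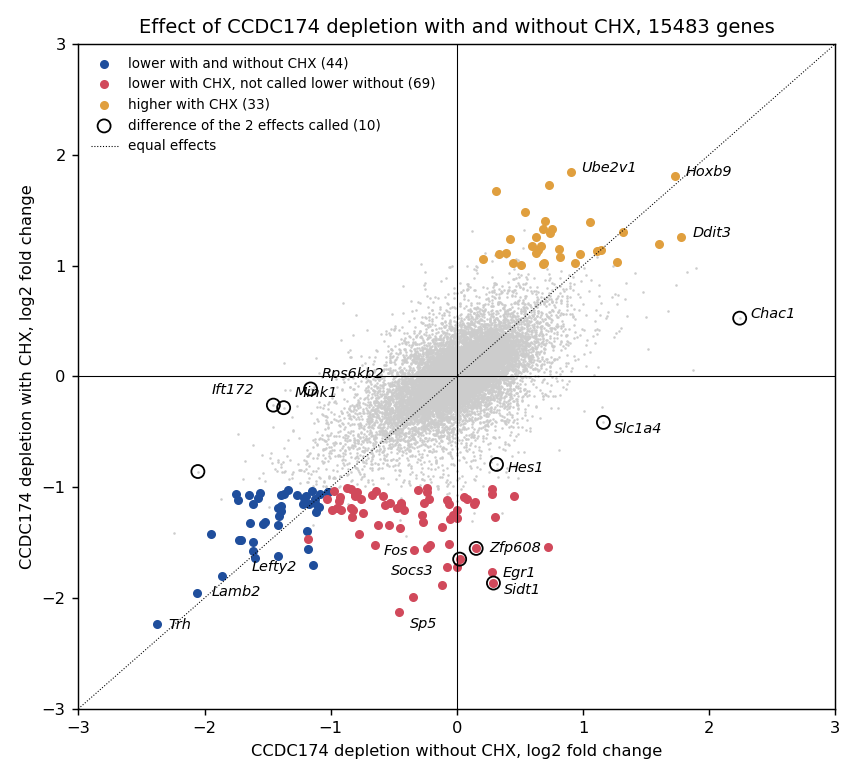
Log2 fold change of CCDC174 depletion without CHX (x axis) and with CHX (y axis) for the 15483 genes tested; colours mark the genes called with CHX and rings the 10 genes whose effects differed by the test of the difference. Genes lowered in both states (44) lie near the dotted line of equal effects, and the 69 others spread along an untreated effect near or below 0.

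The set lowered in both states had many short, GC-rich introns, and the other set had few. Protein-coding genes lowered with and without CHX had a median of 16.5 introns, and the typical intron of such a gene was 356.5 bases long (median over the genes of each gene's median) with 52.5% G and C. Over all protein-coding genes tested these medians were 8 introns, 1512 bases and 45.9%, and for the 52 genes lowered with CHX and not called lower without they were 5 introns, 1355 bases and 45.5%. The trait is not particular to genes lowered in both states. The 133 protein-coding genes called lower without CHX and not with it had medians of 17 introns, 374 bases and 52.9%. Of the 44 genes 35 had at least 10 introns, among them Lamb2 with 32, Cad with 43, which encodes the enzyme that starts pyrimidine synthesis, and Itpr3 with 57, an inositol trisphosphate receptor. Trh, Gng3 and Lefty2, with 2, 2 and 3 introns, were exceptions. Of the 52 genes 24 had at most 3 introns, as had Sp5, Socs3, Fos, Egr1, Egr2 and Zfp36. Among genes with at least 10 introns, the median score of the lowest scoring 5′ splice site was 3.36 for the 35 genes and 3.78 for all 5742. But the 35 genes also had more introns (median 23 against 16), while the median intron length was 342 against 1385 bases. The score was lower in the sets called in 1 state. It was 2.48 for the 107 genes called lower without CHX and not with it (median 20 introns). For the 10 genes lowered with CHX and not called lower without it was 1.32 (median 28.5 introns). Cad, Itpr3, Phyh, Isyna1 and Trap1 were picked for their sequences after their values were seen. So were, below, the list members named for an adjusted p below 0.01 that are neither called nor among the most abundant of their list, such as Junb, Fanca, Trib3, Nupr1, Fdps, Klf4, Snhg12, Gas5 and Smg6, and also Atf4 and Trrap.

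The shares of lowered genes were set against intron number in both states. Of the 1867 protein-coding genes with 20 or more introns CCDC174 depletion lowered 77 (4.12%) without CHX and 27 (1.45%) with it. Among the 3875 genes with 10 to 19 introns the numbers were 65 (1.68%) and 18 (0.465%). With 4 to 9 introns they were 25 and 23 of 5009 genes, and with 1 to 3 introns 9 (0.359%) and 27 (1.08%) of 2506 genes. Of those 27 genes 16 were among the genes raised by CHX in the Nrde2 line, as were 363 of all 2506. The difference of the effects, as log2 with CHX minus log2 without, was above 0 for 59.8% of the genes with 20 or more introns and for 38.7% of those with 1 to 3. The medians of this difference were small, 0.05 and -0.06. The untreated effects came from a fit of 16 libraries and those with CHX from a fit of 8, and in a fit of all 16 the numbers lowered with CHX were 25, 15, 17 and 24 from the most to the fewest introns.

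**Figure D3:**
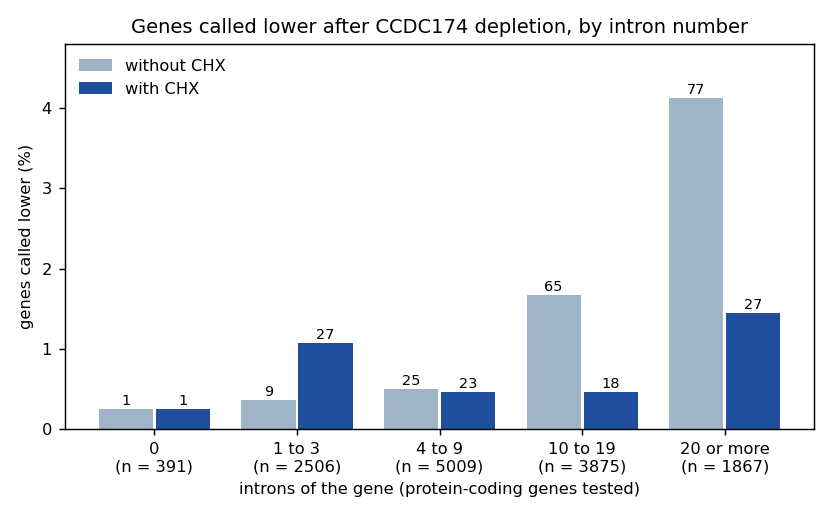
Percent of protein-coding genes called lower after CCDC174 depletion, without CHX (pale) and with CHX (dark), by the number of introns of 1 annotated transcript; the number of called genes stands above each bar and the number tested below the axis. Without CHX the share climbs to 4.12% at 20 or more introns, and with CHX the shares at 1 to 3 introns (1.08%) and at 20 or more (1.45%) are the highest.

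Several immediate early genes were lower in depleted cells with CHX. Of 28 listed genes 26 were tested, of which 5 were lowered and none was raised, where 0.73% and 0.213% of all genes were. At an adjusted p below 0.01 with any size 10 were lower, where 5.97% of all genes were. The median log2 fold change of the 26 was -0.67 with CHX and -0.06 without, and 23 of the 26 had a negative value with CHX. In the untreated cells of the floxed Nrde2 line CHX raised 13 of the 26, where it raised 11.9% of all genes. Egr1, a zinc finger transcription factor induced by MAP kinase signalling, was at 14.4 and 20.1 normalised CPM in wild-type and at 4.15 and 5.66 in depleted cells (-1.76 ± 0.20, adjusted p = 0.00029). Fos, a subunit of the AP-1 transcription factor, was at 23.5 and 30.4 against 7.84 and 10.2 (-1.55 ± 0.18, adjusted p = 0.00035). Zfp36, whose product binds AU-rich elements and hastens the decay of such mRNAs, was at 5.08 and 4.99 against 1.65 and 1.99 (-1.36 ± 0.18, adjusted p = 0.00076). In none of these genes did the wild-type and depleted libraries overlap. Egr2, a relative of Egr1, was at 1.75 and 3.18 against 0.702 and 0.959 (-1.29 ± 0.26, adjusted p = 0.0068) and lost its call when any of 3 libraries was left out. Socs3 was the fifth.

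Below the fold threshold, Junb, another AP-1 subunit, was at 165 and 163 in wild-type and at 82.3 and 82.2 in depleted cells (-0.99 ± 0.07, adjusted p = 1.5e-05), a decrease with close replicates. Gadd45g, a stress-inducible gene, was at 24.2 and 24.8 against 14.1 and 11.7 (-0.92 ± 0.10, adjusted p = 0.00019). Rhob, Klf6 and Csrnp1 were the other genes of the list with an adjusted p below 0.01, at -0.95, -0.66 and -0.68. Rhob, a small GTPase, and Klf6, a zinc finger factor, were also lower in untreated cells, at -1.05 and -0.68. Klf2, the second most abundant gene of the list after Socs3, was at 184 and 212 against 185 and 206 (-0.02, adjusted p = 0.85). Without a filter on low levels, when 36131 genes were tested, no gene of this list passed the test, and its median was again -0.67.

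**Figure D4:**
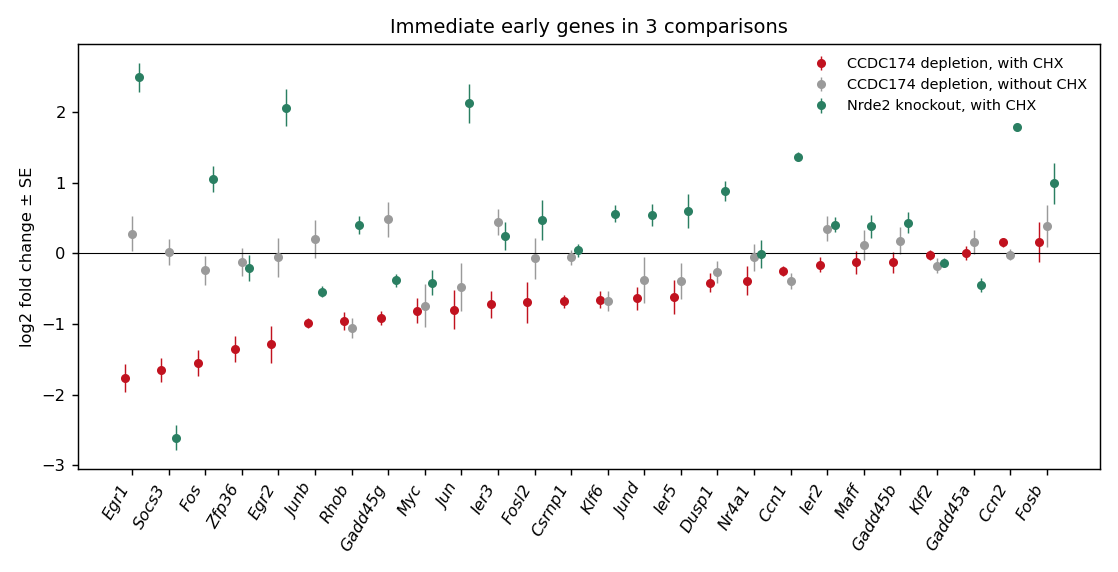
Log2 fold change with its standard error for the 26 immediate early genes tested, ordered by the effect of CCDC174 depletion with CHX (red); the effect without CHX is grey and that of the Nrde2 knockout with CHX green. Red points lie below 0 for 23 genes, and for Egr1, Fos and Egr2 the green points lie above 0.

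The promoter windows of Socs3 and Zfp36 hold the palindrome TTCNNNGAA, the form of site that STAT factors bind, and are shown because LIF signals through such a factor and Socs3 is its feedback inhibitor. The sequences are those RefSeq gives for GRCm38.p6, 81 bases within the window from 250 bases before to 50 after the gene start, with the match in capitals.
Socs3, chr11:117969476-117969556, minus strand: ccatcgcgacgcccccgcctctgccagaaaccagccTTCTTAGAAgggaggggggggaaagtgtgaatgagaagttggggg
Zfp36, chr7:28379201-28379281, minus strand: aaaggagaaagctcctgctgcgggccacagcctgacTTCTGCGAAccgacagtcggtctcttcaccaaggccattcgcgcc
The match starts 154 bases before the gene start in Socs3 and 17 in Zfp36. This motif reads the same on both strands and was found in the windows of 7.83% of the 11224 tested genes that have one. Among genes with a window, 4 of 22 immediate early genes and 10 of 77 genes lowered with CHX held it. Of the immediate early genes with a window, it was in 2 of the 4 called lower. It was in 3 of the 9 that were lower at an adjusted p below 0.01 with any size. A match describes letters and not a bound site.

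The difference between the depletion effects with and without CHX was tested in 1 fit of 16 libraries, and 10 genes (0.0646%) passed, 6 with a lower value in CHX (0.0388%) and 4 with a higher one (0.0258%), a split that turned when any 1 library of the Ccdc174 line was left out. Of the 4 genes, Ift172, Mink1 and Rps6kb2 are described, and they were called lower in untreated cells and had fold changes nearer to 0 with CHX. Ift172, a subunit of the intraflagellar transport particle with 47 introns, was at 36.9 and 34.1 normalised CPM in untreated wild-type and at 12.6 and 12.97 in untreated depleted cells, but at 39.7 and 43.1 against 35.0 and 34.1 with CHX. Its log2 fold change was -1.45 ± 0.08 without and -0.26 ± 0.07 with CHX, a difference of 1.19 ± 0.12 (adjusted p = 0.00063). Without CHX the groups were far apart, and with CHX they were close but did not overlap.

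Mink1, a kinase of the JNK pathway, was at 48.6 and 47.9 against 19.3 and 17.7 without CHX and at 32.9 and 32.4 against 26.9 and 26.6 with it (difference 1.09 ± 0.13, adjusted p = 0.0012). Rps6kb2, a ribosomal protein S6 kinase, was at 13.4 and 14.2 against 6.57 and 5.51 without CHX and at 14.8 and 16.6 against 14.9 and 14.0 with it (difference 1.05 ± 0.16, adjusted p = 0.005). The CHX libraries of Rps6kb2 overlapped between the groups. Ift172, Mink1 and Rps6kb2 have 47, 31 and 14 introns. At an adjusted p below 0.01 with any size, 31 genes (0.2%) had a higher value in CHX and 7 (0.0452%) a lower one. Of the 31, 26 had at least 10 introns, as had 42.1% of all protein-coding genes tested. But 20 of the 31 were called lower without CHX, and such genes mostly have many introns. At least 10 introns were found in 79.5% of the 44 protein-coding genes lowered in both states. The share was 80.5% among the 133 called lower without CHX and not with it. A link between intron number and the difference was not tested.

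The 6 genes with a lower value in CHX were Sidt1, Chac1, Zfp608, Socs3, Slc1a4 and Hes1, the last of which was below the 5 largest and was named after its values were seen. Sidt1 and Zfp608, a zinc finger gene, were near 0 without CHX (at most 0.197 normalised CPM in any library) and had differences of -2.16 ± 0.32 and -1.71 ± 0.27 (adjusted p = 0.004 and 0.0065). Socs3 had a log2 fold change of 0.02 ± 0.19 without CHX (adjusted p = 0.95) and a difference of -1.67 ± 0.26 (adjusted p = 0.007). Hes1, a Notch target gene, was at 38.4 and 48.3 against 51.6 and 55.7 without CHX and at 20.1 and 19.6 against 10.9 and 11.8 with it. Chac1, a glutathione-degrading enzyme, and Slc1a4, a transporter of neutral amino acids, rose without CHX. Chac1 was then at 2.72 and 2.09 against 15.3 and 9.73, and with CHX at 8.53 and 8.03 against 12.6 and 11.5 (difference -1.72 ± 0.28, adjusted p = 0.008).

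Of these 10 differences none passed when the 8 libraries of the Nrde2 line were left out of the fit, in which 1446 genes had an unadjusted p below 0.05. When 1 of the 8 libraries of the Ccdc174 line was left out, between 3 and 19 genes passed, with between 1 and 8 of the 10 among them. The lowest count came without the first wild-type CHX library and without the first depleted CHX library, and the highest without the first untreated depleted library. It was 5 without the second wild-type or the second depleted CHX library, 6 without the first wild-type or the second depleted untreated library and 7 without the second untreated wild-type library. Ift172 passed in each of these 8 settings. The split of directions was not stable either, since in each of the 8 settings more of the calls had a higher value in CHX than a lower one, for example 15 and 4 without the first untreated depleted library and 3 and 0 without the first depleted CHX library. By edgeR and by DESeq2, each on the recovered reads, 8 and 16 genes passed, of which 8 and 8 were among the 10.

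**Figure D5:**
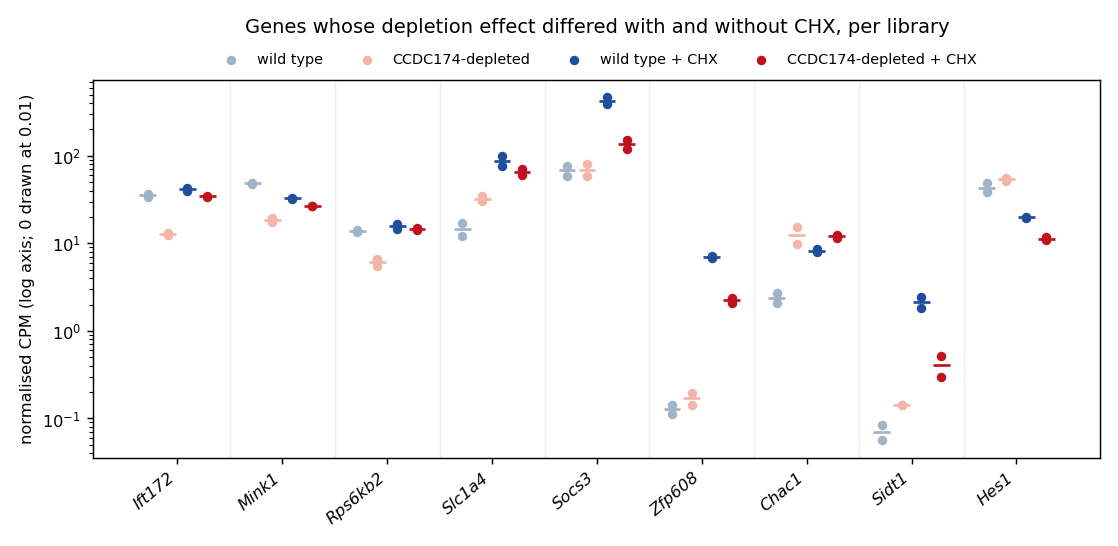
Normalised CPM (log axis) of 9 of the 10 genes whose depletion effect differed with and without CHX, in the 8 libraries of the Ccdc174 line, with 1 point per library and a bar at the mean. For Ift172, Mink1 and Rps6kb2 the pale red points lie well below the pale blue ones and the saturated red and blue points lie closer together; for Socs3, Zfp608 and Sidt1 the reverse holds.

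Genes whose splicing the study examined were lower in depleted cells by less than the threshold. The list of these and of the kinase assembly genes around TTI1 had 11 members, all tested; with CHX none was called, 5 were lower at an adjusted p below 0.01 (5.97% of all genes were), and the median was -0.28. Atr, a DNA damage kinase of the PIKK family and one of its most abundant genes, was at 178 and 169 against 177 and 176 (0.02, adjusted p = 0.78). Cdk2, Tti1 and Dnmt1 were taken from the study, which chose them on these samples, so they are not independent evidence of their direction. Cdk2, the cell cycle kinase, was at 88.2 and 82.4 normalised CPM in wild-type and at 51.2 and 51.3 in depleted cells (-0.73 ± 0.06, adjusted p = 3e-05), and its untreated fold change was -0.74. The 5′ splice site of its first intron is cacGTgagt (score 7.21). Tti1, a scaffold for the assembly of kinases of the PIKK family, was at 62.4 and 69.0 against 46.5 and 47.3 (-0.48 ± 0.06, adjusted p = 0.00041), while without CHX it was at 65.1 and 72.4 against 26.6 and 28.9 (-1.30 ± 0.08). The difference of 0.82 ± 0.11 had an adjusted p of 0.0023 but lay below the size threshold. The 5′ splice site of Tti1 intron 5, the intron the study examined, is aagGTactg (4.84).

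Dnmt1, the maintenance DNA methyltransferase, was at 462 and 462 against 359 and 361 with CHX (-0.36 ± 0.05, adjusted p = 0.0008) and at -0.70 ± 0.06 without, a difference that did not pass (0.33 ± 0.09, adjusted p = 0.12). Its intron 10 begins with GC in the annotated transcript, aagGCaaag (-9.02), so this score is low by construction. Trrap, a PIKK family member with 70 introns, was at 134 and 145 against 79.0 and 82.1 (-0.79 ± 0.07, adjusted p = 5.7e-05). Of 25 genes of homologous recombination and the Fanconi anaemia pathway none was called, 5 were lower and 1 was higher at an adjusted p below 0.01, where 5.97% and 3.16% of all genes were. Brca1 and Fancm, the most abundant, had log2 fold changes of -0.19 and -0.13 (adjusted p = 0.059 and 0.07), and Brca2 of -0.38 (adjusted p = 0.0047). Fanca, a subunit of the Fanconi core complex, was the lowest of them, at 80.1 and 83.9 against 48.9 and 45.8 (-0.79 ± 0.05, adjusted p = 1.1e-05). In Cdk2, Tti1, Dnmt1, Trrap and Fanca the wild-type and depleted libraries did not overlap.

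ATF4 is a transcription factor that cells make when translation initiation is held back by stress. Of 36 tested genes of its response 1 was raised with CHX and 10 were raised without, where 0.213% and 0.297% of all genes were. At an adjusted p below 0.01 with any size, 9 were higher and 1 was lower with CHX, where 3.16% and 5.97% of all genes were, and the medians were 0.20 with CHX and 0.39 without. Ddit3, which encodes the transcription factor CHOP, was at 16.7 and 19.7 normalised CPM in wild-type and at 43.3 and 43.7 in depleted cells with CHX (1.25 ± 0.11, adjusted p = 4.4e-05), and at 3.45 and 2.06 against 11.6 and 8.30 without (1.78 ± 0.22). The most abundant genes of the list were Asns, which makes asparagine, and the tRNA synthetase genes Aars and Gars, with log2 fold changes of -0.19, 0.21 and 0.04 with CHX (adjusted p = 0.079, 0.013 and 0.63). Nupr1, a stress-inducible chromatin regulator, was at 37.9 and 38.3 against 74.2 and 75.9 (0.97 ± 0.08, adjusted p = 3.7e-05), and Trib3, a pseudokinase induced by ATF4, at 27.2 and 25.2 against 49.0 and 44.5 (0.83 ± 0.08, adjusted p = 0.00011). Atf4 itself was at 244 and 233 against 459 and 411 without CHX (0.86 ± 0.08), and at 565 and 536 against 619 and 582 with it (0.12 ± 0.06, adjusted p = 0.16). The difference for Atf4 was -0.74 ± 0.11 (adjusted p = 0.0047), below the size threshold. For the list, the difference was called for Chac1 alone, and the median of the differences was -0.19 against -0.02 for all genes.

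Sterol synthesis genes were on balance below 0 with and without CHX. Of 21 genes none was called with CHX, 9 were lower at an adjusted p below 0.01 (5.97% of all genes were), and 20 had a negative value, with medians of -0.33 with and -0.43 without CHX. Hmgcs1 and Cyp51, enzymes of this pathway and among the most abundant genes of the list, were at -0.51 (adjusted p = 0.00053) and -0.38 (adjusted p = 0.007). Fdps, which makes farnesyl pyrophosphate, was at 13.2 and 15.5 against 8.43 and 8.12 (-0.77 ± 0.11, adjusted p = 0.001). Fasn, the fatty acid synthase, outside this list and named after its values were seen, was called lower at 627 and 594 against 287 and 262 (-1.15 ± 0.09, adjusted p = 1.9e-05).

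Among signalling and cell identity lists, Lefty2 was the sole gene called of 16 in the Nodal and BMP list and Sp5 the sole gene of 11 tested in the Wnt list. Of all genes tested 0.73% were called lower. Of the 23 pluripotency genes none was called. The most abundant, Zfp42, Esrrb and Fbxo15, had log2 fold changes of 0.03, 0.09 and -0.20 (adjusted p = 0.65, 0.16 and 0.032). Tdgf1, a co-receptor for Nodal, was at 314 and 337 against 188 and 208 (-0.72 ± 0.06, adjusted p = 6.2e-05), and Klf4 was at 95.1 and 103 against 149 and 158 (0.63 ± 0.07, adjusted p = 0.00022). Of 6 tested markers of neurectoderm 1 was lowered, Pax6, a transcription factor of the eye and brain that was below 1 CPM in the untreated libraries of this line, at 15.995 and 18.3 against 7.46 and 8.57 (-1.08 ± 0.16, adjusted p = 0.0012), a call lost without the second wild-type or the first depleted library. The 8 neurectoderm markers summed to 261 and 261 normalised CPM in wild-type and to 173.7 and 165 in depleted cells, and most of this was Nes (203 and 211 against 132 and 129). Primitive endoderm markers, 13 in number and with 10 tested, summed to 565 and 594 against 422 and 435, with 3 lower at an adjusted p below 0.01, Col4a1, Lama1 and Sparc. Of the 10 tested, 7 had a negative log2 fold change and 3 a positive one, the highest 0.58, and the median was -0.18. In these bulk libraries fewer cells of a type and less RNA per cell cannot be told apart, and the part of cell mixture in these results was not tested. Trophectoderm markers summed to 81.0 and 83.4 against 66.6 and 69.3, epiblast markers to 227 and 198 against 219 and 203, and fibroblast markers, which feeder cells would bring, to 13.8 and 16.8 against 14.7 and 16.3. At most 1 marker of any of these lists was at 0 in a library.

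The remaining lists held no gene called with CHX: exon junction complex, nonsense-mediated decay, SR proteins, U1 and Sm proteins, hnRNPs, p53 targets, 2-cell-stage transcripts, the exosome, snoRNA hosts, cyclins, DNA methylation, mitochondrial mRNAs, and the trophectoderm, epiblast and fibroblast markers. Their medians lay between -0.27 for the epiblast markers and 0.23 for the snoRNA hosts. Of 16 snoRNA host RNAs tested, 5 were higher at an adjusted p below 0.01 (3.16% of all genes were). The most abundant, Snhg1, Snhg15 and Snhg17, had log2 fold changes of 0.22, 0.02 and 0.25 (adjusted p = 0.038, 0.84 and 0.003). Among the 5 were Snhg12, at 75.7 and 64.2 against 125 and 112 (0.76 ± 0.09, adjusted p = 0.00031), and Gas5, at 166 and 142 against 231 and 209 (0.52 ± 0.08, adjusted p = 0.0012). Such RNAs hold short open reading frames, and their spliced forms are known targets of nonsense-mediated decay. Of 15 decay factors, the most abundant were Etf1 and Smg1, both at -0.09 (adjusted p = 0.43 and 0.23). Smg5 was lower, at 353 and 338 against 260 and 237 (-0.48 ± 0.06, adjusted p = 0.00039), and Smg6 was higher, at 125 and 123 against 155 and 155 (0.32 ± 0.05, adjusted p = 0.0014).

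The 33 raised genes were mostly of low level. Hoxb9, a posterior homeobox gene, was at 4.27 and 4.67 normalised CPM in wild-type and at 16.6 and 16.01 in depleted cells (1.81 ± 0.18, adjusted p = 0.00012), and it was raised without CHX as well (1.73 ± 0.19). Ccdc57, which encodes a coiled-coil protein of the centrosome, was at 5.81 and 8.82 against 15.8 and 19.3 (1.26 ± 0.22, adjusted p = 0.0033). Ube2v1, a cofactor of ubiquitin conjugation, was at 0.136 and 0.159 against 1.31 and 1.05 (1.85 ± 0.21, adjusted p = 0.00025), on 6 and 7 reads in wild-type cells. The groups did not overlap for any of these genes. Ube2v1 overlaps a second annotated gene on the same strand, and Ddit3, Sssca1 and Tmem147os each overlap an annotated gene of the same name, so reads from the shared part may not have been counted.

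Sssca1, Gm960, Tmem147os, Gm43597, Tmem132b, Gm44777, Gm11738 and 1810009A15Rik completed the 12 largest increases, with log2 fold changes between 1.72 for Sssca1 and 1.29 for 1810009A15Rik and depleted levels of 1.04 to 2.56 normalised CPM. With 1 CPM added before log2, Ube2v1 and these 8 genes fell below the fold threshold and Hoxb9, Ddit3 and Ccdc57 did not. Ccdc57, Tmem147os, Gm43597, Tmem132b, Gm44777, Gm11738 and 1810009A15Rik also lost the call when 1 library was left out, any of 2 to 4 for each. All 33 genes had a positive fold change without CHX, and 6 of them were among the 46 (0.297%) raised there, which is 18.2% of the one list and 13.04% of the other. The median of the 33 was 1.18 with CHX and 0.70 without.

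Nrde2 knockout under CHX was measured in another line with other libraries, but in the same fit and so with a shared estimate of spread. The knockout lowered 279 of the same genes (1.8%) and raised 363 (2.34%). It lowered 60 of the 113 genes lowered by CCDC174 depletion, which is 53.1% of these and 21.5% of the 279, and 103 of the 113 (91.2%) had a negative value, against 50.9% of all genes tested. The knockout raised 5 of the 113. It raised 12 of the 33 raised genes, which is 36.4% of these and 3.31% of the 363. Lamb2 (-1.57), Trh (-1.65), Msln (-2.01), Fgg (-2.28), Lefty2 (-1.66) and Gng3 (-2.27) fell in the knockout, and Hoxb9 (1.70) rose. Of the 113 genes 32 were lower in all 3 comparisons, with CHX, without CHX and in the knockout, and 41 were called lower in the first and in neither of the others, which does not show that their response differed.

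The difference between the effects of CCDC174 depletion and Nrde2 knockout was called for 213 genes (1.38%), and for 12 of the 113. Among them were immediate early genes that the knockout raised. Egr1 was at 2.49 ± 0.20 in the knockout (adjusted p = 8e-06), a difference of -4.25 (adjusted p = 6.6e-05), Fos at 1.06 ± 0.18, a difference of -2.61 (adjusted p = 0.00049), and Egr2 at 2.06 ± 0.26, a difference of -3.35 (adjusted p = 0.00065). Sp5 was at 0.42 ± 0.18 in the knockout, a difference of -2.54 (adjusted p = 0.0005). Socs3 fell in the knockout too, at -2.61 ± 0.17, and its difference of 0.96 did not pass (adjusted p = 0.027). Across the 26 immediate early genes the knockout raised 6 and lowered 1, where it raised 2.34% and lowered 1.8% of all genes. Their median was 0.42 in the knockout against -0.67 for CCDC174 depletion, and the difference was called for 10. The comparisons also differ in line, in inducer and in length of treatment, 24 h of dTAG-13 against 4 days of 4-hydroxytamoxifen. A difference between the proteins cannot be told apart from these. Without the first Nrde2-knockout library the difference was called for 54 genes in place of 213. The number was 95 and 123 without the first and second depleted library, 136 without the second wild-type library of the Ccdc174 line, and 138 and 141 without the second control and knockout library of the Nrde2 line.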

How the data were processed

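Total RNA, depleted of ribosomal RNA, was sequenced as stranded 50-nt single-end reads. Alignment by the authors was to mm10 with STAR 2.7.3a. They counted uniquely mapping sense reads in GENCODE M23 genes with featureCounts and deposited CPM per gene. All values in the 16 libraries used were whole multiples of 1 read (tolerance 0.1 read), so reads were recovered for edgeR and DESeq2. Annotation here was GENCODE M21, which lacks 8 tested genes. CPM was divided by median-of-ratios factors and 0.25 was added before log2. limma 3.58.1 with a mean-variance trend fitted the 8 CHX libraries (CCDC174 and Nrde2 effects and their difference) or all 16 (untreated effects, CHX responses, difference with and without CHX). Named genes were Ccdc174, Nrde2, Mtrex, Cdk2, Tti1 and Dnmt1, the 12 largest increases and decreases among called genes of at least 1 CPM with separate groups, up to 5 of the largest differences of each sign, and the called members of each list or, with fewer than 2, up to 3 of its most abundant members; other names were chosen after their values were seen, and some genes the rule names are not reported here. Members and lists were chosen with earlier results of these data known. The fits were tested on simulated data. Alternatives covered the added constant, filter, scaling, replicate block, edgeR 4.0.16, DESeq2 1.42.0, the libraries in the fit and leaving out each library. The 16-library fit of the CHX effect and the CHX response of the Nrde2 line were added after the data were seen. No sample column was left unmapped; deposited tables of other assays were not used.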

Additional observations from a re-analysis of the deposited data

Results flagged for a closer look

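The depletion effect differed with and without CHX by the test of the difference. As log2 with CHX minus log2 without, the values were 1.19 for Ift172, 1.09 for Mink1 and 1.05 for Rps6kb2, and -2.16 for Sidt1, -1.72 for Chac1, -1.71 for Zfp608, -1.67 for Socs3 and -1.58 for Slc1a4. Of the 10 genes called, none passed in a fit of only the 8 libraries of the Ccdc174 line. Between 1 and 8 of them passed when 1 library of that line was left out. Sidt1 and Zfp608 were near 0 without CHX, where a decrease could hardly be seen. The effect of CCDC174 depletion with CHX also differed from that of the Nrde2 knockout with CHX, by -4.25 for Egr1, -3.35 for Egr2, -2.61 for Fos and -2.54 for Sp5. Line, inducer and length of treatment differed as well and cannot be told apart from a difference between the proteins.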

How the results depend on the processing

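All counts below are of genes called, of which 146 came from CCDC174 depletion with CHX, 10 from its difference with and without CHX and 213 from the difference to the Nrde2 knockout. For the first, 1 added before log2 gave 64 (6 higher, 58 lower, against 33 and 113), no filter gave 47 (7 and 40), and the other alternatives with all libraries gave 112 to 191. Leaving out 1 library gave 82 to 114, and 11 of 93 and 9 of 82 calls were then higher without the first and the second depleted library. Of the immediate early genes 5 were lowered, 0 without a filter (6878 of all genes then had an unadjusted p below 0.05), and 4 to 6 without 1 library. For the difference with and without CHX, no filter gave 3, DESeq2 16, only the 8 libraries of the Ccdc174 line 0 (1446 at an unadjusted p below 0.05), and leaving out 1 library 3 to 19. With CPM as deposited 7 of 13 were higher, against 4 of 10. For the difference to the knockout, no filter gave 4 and leaving out 1 library 54 to 215. The causes were not tested. With the replicate number as a block the counts were 182, 17 and 418. The labels give no shared batch, and the deviations of same-numbered libraries correlated across genes at 0.37 with and 0.34 without CHX in the Ccdc174 line and at 0.22 and 0.12 in the Nrde2 line. No named gene's fold change changed sign, but in the difference with and without CHX the split of 4 higher and 6 lower turned to mostly higher without a filter (3 and 0) and without any 1 library of the Ccdc174 line. Over the named genes, 563 of 708 values stayed on their side of the threshold with the same direction and 145 lost the call. Genes under about 1 CPM rest on few reads, which limits their precision.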
